A study of Mus musculus with 6 samples.

Results

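The 10 genes described here encode precursors of gut peptide hormones, namely Sct, Gcg, Pyy, Cck, Nts, Gip, Sst, Ghrl, Tac1 and Insl5. They were chosen by name, and all 10 are among the 23420 genes of the expression table. The table holds RNA-sequencing values of ileal tuft cells in 6 libraries, all from mice with the genotype Gfi1b-eGFP. Their titles give the strain as C57BL/6J and the strain field as C57BL/6. They form 1 group of mouse replicates, for which the labels name no treatment, age or sex. The reporter is green fluorescent protein expressed from 1 copy of the Gfi1b locus, and cells were sorted as positive for it and for EpCam and negative for CD45 and for a dead-cell dye. Values are TPM (transcripts per 1000000), a length-corrected share of all transcripts that has the same sum in each library. Levels of different genes are therefore compared with each other, which assumes the library preparation that the published methods describe. The number of reads behind a value is unknown.

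Most gut hormones are made by enteroendocrine cells, rare secretory cells scattered in the epithelium that store peptides in dense granules and release them on stimulation by nutrients. Subtypes have letter names and are told apart by their main products. L cells make the products of Gcg and Pyy, K cells of Gip, D cells of Sst, I cells of Cck, N cells of Nts and S cells of Sct, although single cells often make several. Secretin, the product of Sct, stimulates the pancreas and bile ducts to secrete bicarbonate. Tuft cells are a separate, chemosensory lineage of the same epithelium, marked by Dclk1, Trpm5 and the transcription factor Pou2f3.

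Sct was abundant in every library, at 375.2, 473.7, 330.8, 358.4, 358.2 and 406.4 TPM in replicates 1 to 6. The 6 values lay close together, with a mean of 383.8 ± 50.5 TPM (SD, n = 6) and the highest 1.43 times the lowest. The other 9 hormone genes were low or were listed at 0, and none of them was above 0 in all 6 libraries. Of their 54 values, 22 were exactly 0, 28 were at least 1 TPM and 6 were at least 10 TPM. The highest single value among them, 79.2 TPM of Sst in replicate 4, was below the lowest value of Sct, which was 4.18 times as high. In the whole table, 11047 of 23420 genes were above 0 in all 6 libraries and 7713 were at 0 in all. Whether zeros are more frequent in the hormone genes than in other genes of like low level was not examined. The level and the steadiness of Sct are what the 10 genes were chosen to show, so these values are a description and carry no test.

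**Figure D1:**
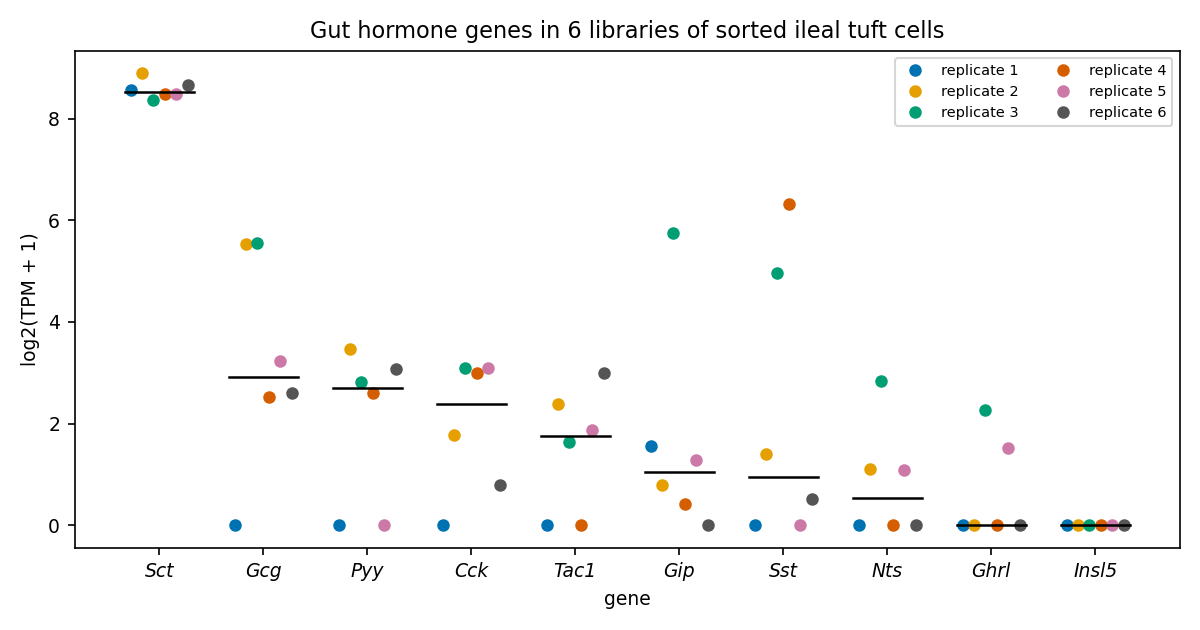
Level of each gut hormone gene on the log2(TPM + 1) scale in 6 libraries, with points coloured by replicate, the median as a black line and genes ordered by median. The 6 points of Sct sit together, far above those of the other 9 genes, which spread from 0 upwards.

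In GRCm38, the Sct gene (ENSMUSG00000038580.13) occupies chr7:141278330-141279133 and is read from the minus strand. It is a gene of 804 bases whose longest annotated transcript has 3 exons and 617 nucleotides. No other annotated gene overlaps Sct, and of the 10 hormone genes only Ghrl is overlapped, by Gm26982 and Gm44033 on the opposite strand, neither of which is in the table. The sequences upstream of Sct and of the 3 other hormone genes whose mean reached 5 TPM are shown because these 4 genes carry the contrast between a steady and a variable level. Each run is the 250 bases before the RefSeq transcription start in GRCm38.p6, written 5′ to 3′ along the gene. Capitals mark exact matches, on either strand, to an E-box (CANNTG, bound by basic helix-loop-helix factors such as Neurod1), a GC box (GGGCGG, bound by Sp factors), a TATA box (TATAAA) or a cAMP response element (TGACGTCA). No matches overlap in these 4 runs.
Sct, chr7:141279134-141279383, minus strand: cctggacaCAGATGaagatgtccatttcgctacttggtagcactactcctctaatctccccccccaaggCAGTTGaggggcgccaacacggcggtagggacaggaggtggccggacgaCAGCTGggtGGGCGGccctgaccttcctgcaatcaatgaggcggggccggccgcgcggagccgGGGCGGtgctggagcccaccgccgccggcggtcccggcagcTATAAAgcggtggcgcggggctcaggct
Gcg, chr2:62483654-62483903, minus strand: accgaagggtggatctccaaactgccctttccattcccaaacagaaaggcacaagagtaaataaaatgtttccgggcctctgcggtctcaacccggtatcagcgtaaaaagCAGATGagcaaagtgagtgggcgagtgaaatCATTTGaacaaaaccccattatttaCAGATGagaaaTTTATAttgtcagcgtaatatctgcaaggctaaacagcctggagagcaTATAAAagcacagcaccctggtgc
Gip, chr11:96024295-96024544, plus strand: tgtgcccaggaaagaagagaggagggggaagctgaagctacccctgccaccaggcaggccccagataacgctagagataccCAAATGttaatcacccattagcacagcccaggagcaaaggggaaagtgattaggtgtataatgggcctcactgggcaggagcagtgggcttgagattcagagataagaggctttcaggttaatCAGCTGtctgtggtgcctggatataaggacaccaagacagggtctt
Sst, chr16:23890845-23891094, minus strand: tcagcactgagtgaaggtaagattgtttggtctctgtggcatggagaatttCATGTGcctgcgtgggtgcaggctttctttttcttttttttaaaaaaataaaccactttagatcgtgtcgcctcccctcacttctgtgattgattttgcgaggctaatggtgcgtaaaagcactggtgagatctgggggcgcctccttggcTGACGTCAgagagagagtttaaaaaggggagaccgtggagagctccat

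Of these 4 sequences, that of Sct alone held GC boxes, 2 in number, which start 123 and 69 bases before the transcription start. Sct and Gcg each held a TATA box close to the start, 28 and 24 bases before it, and Gcg held another 72 bases before it. Motifs and base composition were counted in windows of 250 bases before to 50 after each start, of which RefSeq gave 15 for the 10 genes, and 32851 in all. The Sct window held 66.7% G and C, more than 85.0% of all windows, against 47.0% for Gcg, 52.7% for Gip and 50.3% for Sst. Windows of the hormone genes whose sequences are not shown held 44.3% (Insl5) to 61% (Pyy). At least 2 GC boxes occurred in 19.5% of all windows, and at least 1 TATA box in 13.6%. Among the 10 hormone genes, Tac1 and Insl5 also had a window with a GC box, and Insl5 also had a TATA box. E-boxes were present in all 15 windows of the hormone genes and in 72.3% of all windows. The Sct window held 4 of them, a number reached by 6.49% of all windows, with the last starting after the transcription start, at base 11. A window of Ghrl held 5. The cAMP response element of Sst starts 48 bases before the transcription start, and 1.79% of all windows held one. The octamer ATGCAAAT, which is bound by POU factors, the class of Pou2f3, was found in 0 of the 15 windows and in 1.74% of all windows. A match describes the letters only, and binding was not measured.

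Among genes above 0 in the same library, Sct lay between the 97.1st and the 98.1st percentile, and it ranked between 257 and 379 from the top of the table. By mean level, 311 genes were at least as abundant. Its product is therefore encoded by one of the more abundant messages of these libraries, at a level between those of the tuft cell markers Plcb2 and Dclk1. Plcb2, a phospholipase of taste signalling, ranged from 162.9 to 308.7 TPM with a median of 256.5 TPM, and Dclk1 ranged from 511.1 to 820.6 TPM with a median of 569.0 TPM.

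In the secretin family of peptides, to which the products of Sct, Gcg and Gip belong, the other members did not share the pattern of Sct. Gcg, whose precursor yields GLP-1 and GLP-2, was listed at 0 in replicate 1, at 45.5 and 45.7 TPM in replicates 2 and 3 and at 4.72, 8.36 and 5.05 TPM in replicates 4 to 6. Gip, whose product enhances insulin release after a meal, was at 1.93, 0.74, 52.6, 0.34, 1.45 and 0 TPM in replicates 1 to 6. Its level in replicate 3 thus lay far above that in the other 5, whose mean was 0.892 TPM, and the mean over all 6 libraries (9.51 TPM) rests on that library. Gcg was high in replicates 2 and 3 together, so the libraries with high Gcg and high Gip coincided only in replicate 3.

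Sst encodes somatostatin, the peptide of D cells that inhibits the release of other hormones. It was at 0, 1.63, 30.0, 79.2, 0 and 0.43 TPM in replicates 1 to 6, so that replicates 3 and 4 held nearly all of it. Without replicate 4 its mean fell from 18.5 to 6.41 TPM. Replicate 4 was also the library with the most Iapp, the precursor of amylin, which was at 5.23 TPM in replicate 3, at 46.1 TPM in replicate 4 and at 0 in the other 4. Hhex, a transcription factor known from somatostatin cells of the pancreas, was at 1.82 TPM in replicate 4 and at 0 elsewhere, and it was singled out after its values were seen. Scg2, a granin of secretory granules, was at 10.6 TPM in replicate 4, at 1.62 TPM in replicate 3 and at 0 in the other 4. Sst, Iapp and Scg2 thus had their 2 highest libraries in common, replicates 4 and 3 in that order.

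Pyy, whose product slows gut transit and is often made in the same L cells as that of Gcg, was at 0, 10.1, 6.06, 5.05, 0 and 7.40 TPM in replicates 1 to 6. Its highest library was replicate 2, as was the case for Sct, but it was listed at 0 in 2 libraries in which Sct was at 375.2 and 358.2 TPM. Cck, whose product contracts the gallbladder, was at 0, 2.44, 7.54, 6.96, 7.5 and 0.73 TPM. It was highest in replicates 3, 4 and 5, which lay close together. Tac1, the precursor of substance P, was at 0, 4.21, 2.13, 0, 2.68 and 6.98 TPM, with the highest value in replicate 6.

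The remaining 3 genes were the lowest. Nts, which encodes neurotensin, was at 0, 1.15, 6.15, 0, 1.12 and 0 TPM in replicates 1 to 6, and replicate 3 stood apart again. Ghrl, the precursor of the hunger hormone ghrelin, was above 0 in replicates 3 (3.79 TPM) and 5 (1.85 TPM) only. Insl5, a relaxin-like peptide known mainly from L cells of the colon, was listed at 0 in all 6 libraries. As the depth is unknown, a value of 0 cannot be set against a detection limit.

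Ordered by their median TPM, the genes ran Sct (366.8), Gcg (6.71), Pyy (5.56), Cck (4.70), Tac1 (2.41), Gip (1.10), Sst (1.03), Nts (0.560), then Ghrl and Insl5 at 0. The step from Sct to Gcg was the only one whose mean within a library, 5.34 ± 2.08 on the log2(TPM + 1) scale (SD, n = 6, Sct higher in 6 of 6), exceeded its SD. For the other 8 neighbouring pairs the mean difference lay within 1 SD, so neighbours below Sct were not set apart by this measure. Genes farther apart in the order were not compared. Ordered by mean instead, Sst came second at 18.5 TPM and Gip moved above Pyy at 9.51 TPM, with their high values in 1 or 2 libraries.

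Library by library, the most abundant hormone gene after Sct was a different one from one mouse to the next. It was Gip in replicates 1 and 3, Gcg in replicates 2 and 5, Sst in replicate 4 and Pyy in replicate 6. Sct was 194.4, 10.4, 6.29, 4.53, 42.8 and 54.9 times as high as that gene in replicates 1 to 6. On the log2(TPM + 1) scale the difference was 4.34 ± 1.91 (SD, n = 6). The gap varied with the other gene far more than with Sct, whose highest value was 1.43 times its lowest.

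The 9 other genes together had 1.93, 65.8, 153.9, 96.3, 23.0 and 20.6 TPM in replicates 1 to 6, a 79.8-fold range. In replicate 1, 8 of the 9 were listed at 0, and only Gip was above it, while Sct was at 375.2 TPM. In replicate 3, the library with the highest sum, 8 of the 9 were above 0 and 5 of them (Gcg, Cck, Nts, Gip and Ghrl) had their highest value, while Sct had its lowest. Sct made up 99.5%, 87.8%, 68.2%, 78.8%, 94.0% and 95.2% of the summed TPM of the 10 genes, with a mean of 87.3% ± 11.8 (SD, n = 6). In these bulk libraries, a different number of cells of a type cannot be told apart from a different amount of RNA per cell.

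**Figure D2:**
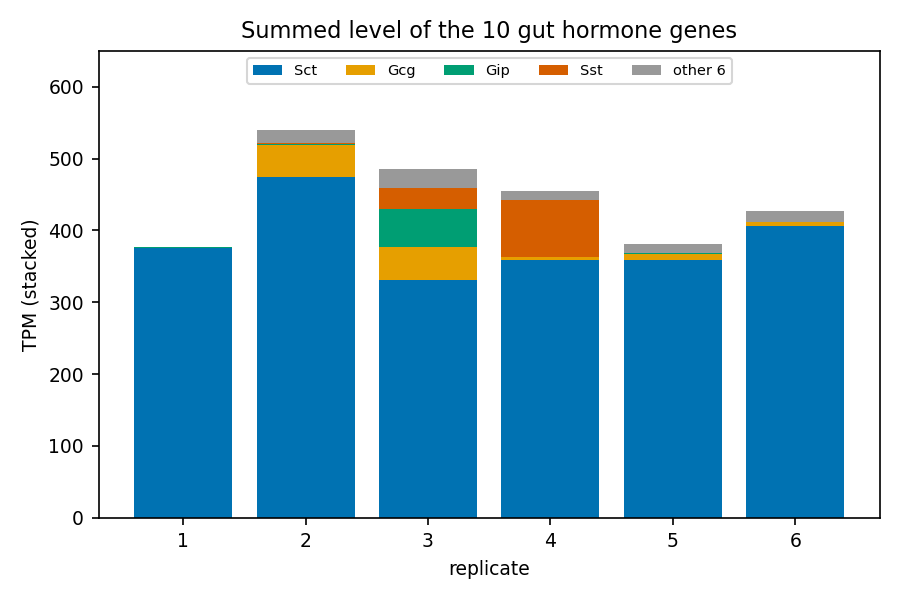
Summed TPM of the 10 gut hormone genes in replicates 1 to 6, as stacked bars of Sct, Gcg, Gip, Sst and the other 6 genes. Sct forms between 68.2% and 99.5% of each bar, and the part above it changes in height and in composition between libraries.

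The coefficient of variation (SD over mean of the TPM values) of Sct was 13.2%. That of each of 13 tuft cell markers was larger, from 18.3% for Rgs13 to 35.9% for Alox5ap with a median of 27.3%. The 8 other hormone genes above 0 had coefficients between 84.2% (Cck) and 222.1% (Gip). Their means were only 0.940 (Ghrl) to 18.5 TPM (Sst). They were not set beside genes of like level, so whether their spread is large for that level was not examined. Among the 427 other genes with a mean within 2 times that of Sct, 30, or 7.03%, had a smaller coefficient, and the median was 24.2%. The low spread of Sct depended in part on scaling and on single libraries. When values were rescaled without Rn45s, the ribosomal RNA precursor, and Gm20594, 22.8% of such genes had a smaller coefficient, while all 13 tuft markers still had a larger one. Without replicate 2, the library with the most Sct, its coefficient fell to 7.58% and 0.924% of such genes lay below it. Without replicates 1, 3, 5 and 6 in turn that share was 14.0%, 18.2%, 11.8% and 11.8%, and without replicate 3 it was 12 of the 13 tuft markers that varied more.

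**Figure D3:**
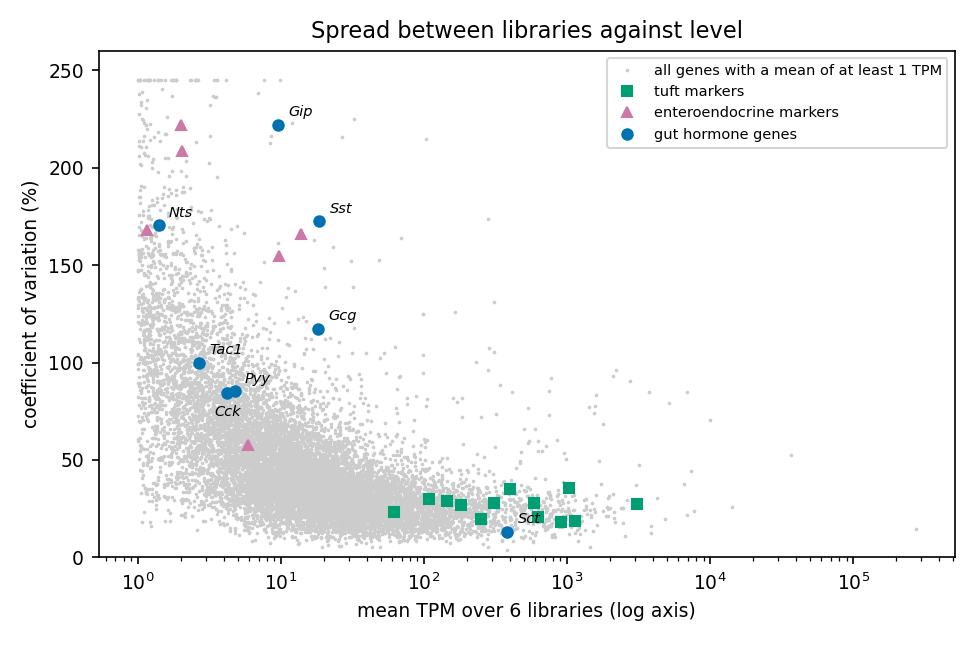
Coefficient of variation over 6 libraries (%) against mean TPM (log axis) for genes whose mean reached 1 TPM in grey, with gut hormone genes, tuft cell markers and enteroendocrine markers in colour. Sct, at 383.8 TPM and 13.2%, lies with the tuft cell markers in level and below them in spread, while the other hormone genes shown lie at 84.2% or more.

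The genes whose values came closest to those of Sct over the 6 libraries, by the root mean square difference in log2(TPM + 1), were Fyb (0.13), Atox1 (0.16), Ivns1abp (0.16), Ndufb3 (0.16) and Cystm1 (0.19). Fyb, an adaptor of immune cell signalling, was at 327.2 to 436.4 TPM and had its lowest and highest values in the same libraries as Sct, replicates 3 and 2. Ndufb3, a subunit of respiratory complex I, varied less than Sct, with a coefficient of variation of 3.67%. These 5 genes were picked from 23419 for a like level, so their likeness is a description.

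Relations of Sct and of Gcg with cell type markers were examined over the 6 libraries. No relation of Sct with the tuft cell markers or with hormone-free enteroendocrine markers passed the test. Against the median log2(TPM + 1) of 13 tuft markers, Sct gave Pearson r = 0.452 (exact permutation test over 720 pairings, two-sided, p = 0.389, adjusted p = 0.757) and Spearman rho = 0.314 (exact p = 0.564, adjusted p = 0.617). When the pair of libraries most distant from the list's median, replicates 1 and 2, was dropped, r was -0.256, so its sign rests on those libraries. For Gcg and the tuft markers, r was -0.280 (exact permutation p = 0.568, adjusted p = 0.757), rho was -0.429 (exact p = 0.419, adjusted p = 0.617) and r was -0.355 without the same 2 libraries.

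The enteroendocrine markers are a weak yardstick in these data. The median of the 12 markers was 0 in replicates 1, 5 and 6 and at most 0.47 on the log2(TPM + 1) scale. Against it, Sct gave r = -0.336 (exact permutation p = 0.442, adjusted p = 0.757) and rho = -0.273 (exact p = 0.617, adjusted p = 0.617), and Gcg gave r = 0.018 (exact permutation p = 0.942, adjusted p = 0.942) and rho = 0.273 (exact p = 0.617, adjusted p = 0.617). Without replicates 3 and 4, r was 0.905 for Sct and 0.790 for Gcg, over 4 libraries of which 3 have a list median of 0. The 4 relations were adjusted together by the Benjamini-Hochberg method.

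Transcripts of the enteroendocrine markers were mostly low and were uneven between libraries. Of the 12 markers, 2 (Nkx2-2 and Rfx6) were listed at 0 in all libraries, as were 7713 of all 23420 genes. Another 3 (Chga, Chgb and Pcsk1) were above 0 in all libraries, as were 11047 of all genes. The summed TPM of the 12 markers was 14.8, 15.02, 21.4, 23.9, 113.7 and 25.0 in replicates 1 to 6. Sct exceeded that sum in each library. The library with the highest sum, replicate 5, was at 358.2 TPM of Sct, and replicate 1, with the lowest sum, was at 375.2 TPM. Chga and Chgb, the granins that mark most enteroendocrine cells, were highest in replicate 5, at 40.4 and 59.6 TPM, and so was Tph1, the enzyme of serotonin synthesis in enterochromaffin cells, at 11.0 TPM. These 3 genes made up 111.04 of the 113.74 TPM in that library. Of the other 9 markers, 8 were at 0 there and Pcsk1 was at its lowest value, 2.70 TPM, so the high sum was not shared by the rest of the list. None of the 10 hormone genes had its highest value in replicate 5. The cell of origin of the Sct transcripts was not tested.

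**Figure D4:**
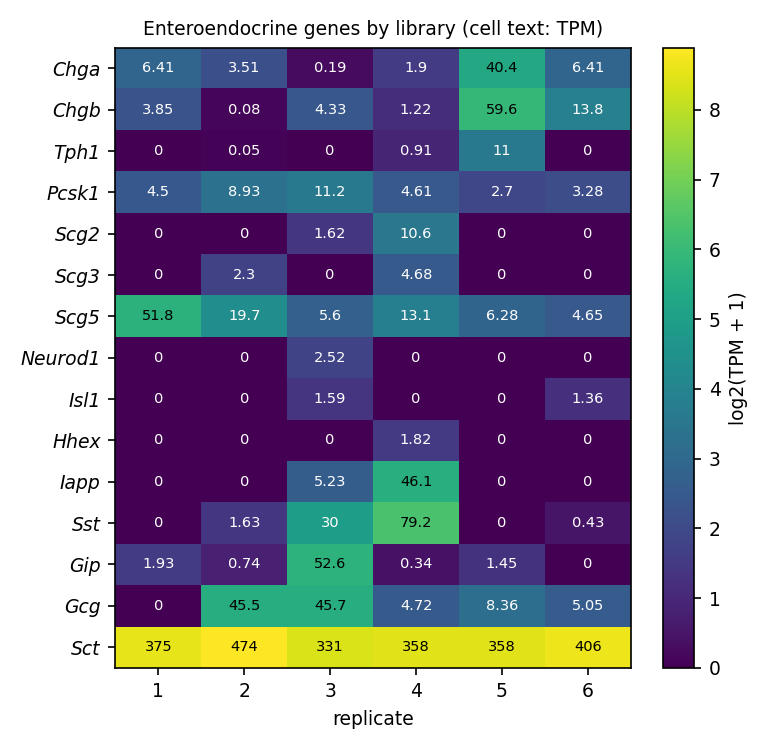
TPM of 11 enteroendocrine genes and of Sst, Gip, Gcg and Sct in replicates 1 to 6, with the number in each cell and the colour on the log2(TPM + 1) scale. The bottom row, Sct, is even across libraries, while the high cells of Chga and Chgb fall in replicate 5, those of Iapp and Sst in replicate 4 and that of Gip in replicate 3.

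Genes that process prohormones were low. Of 14 genes for granins, prohormone convertases and peptide-modifying enzymes, 8 had a mean of at least 1 TPM and 2 (Vgf and Pcsk2) were listed at 0 throughout. In the whole table, 7713 of 23420 genes were listed at 0 throughout. Pcsk1, the prohormone convertase of most enteroendocrine cells, was at 4.50, 8.93, 11.2, 4.61, 2.70 and 3.28 TPM in replicates 1 to 6. Scg5, a chaperone of the convertase encoded by Pcsk2, had the highest mean of the list (16.9 TPM), at 4.65 to 51.8 TPM with the highest value in replicate 1, where 8 hormone genes were at 0. Without replicate 1 its mean was 9.87 TPM, below those of Chgb (15.8 TPM) and Chga (10.5 TPM). Pam, the enzyme that amidates the end of secretin and of other peptides, was at 0.61 to 3.93 TPM. Sct was thus 29.6 to 133 times as high as Pcsk1 in the same library.

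Transcription factors of the enteroendocrine lineage were low, with 1 exception. Of 14 genes, 4 (Pax4, Nkx2-2, Rfx6 and Etv1) were at 0 in all libraries, as were 7713 of the 23420 genes of the whole table. Another 9 had a mean above 0 but under 1 TPM. Neurod1, a factor that activates Sct in secretin cells, was at 2.52 TPM in replicate 3 and at 0 in the other 5. Its relation to Sct was not tested. Mlxipl, a glucose-responsive factor also used in other cell types, was the exception, at 16.5 to 25.2 TPM.

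Receptor genes for the products of these genes were mostly low. Of 23 receptor genes found in the table of 24 listed, 11 were at 0 in all libraries, including the secretin receptor gene Sctr. Over all 23420 genes of the table, 7713 were at 0 in all libraries. Sort1, a sorting receptor that also binds neurotensin, was above 0 in all libraries at 33.1 to 72.3 TPM, and Sstr4, a somatostatin receptor, was at 2.17, 5.81, 3.36, 0.58, 0 and 0 TPM in replicates 1 to 6. The other receptors had means under 1 TPM, with Npy1r, a receptor for peptide YY, between 0.50 and 1.19 TPM in all 6 libraries.

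Among 19 other gut peptide genes found of 20 listed, 10 were at 0 in all libraries, against 7713 of all 23420 genes. Of the 19, only Guca2a and Guca2b exceeded Sct in any library. They encode guanylin and uroguanylin, which act on the epithelium's guanylate cyclase and are made by several epithelial cell types. Guca2a was at 352.0 to 791.8 TPM and Guca2b at 232.9 to 1300.3 TPM, with coefficients of variation of 36.0% and 59.8%, so both were less even than Sct. Calcb, a calcitonin gene-related peptide gene, was at 25.6, 9.82, 3.07, 7.80, 7.72 and 0 TPM.

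RNA of other epithelial cell types was present in every library. Tuft markers summed to 7136 to 12022 TPM, with all 13 above 0 in all libraries, and Sct was 3.12% to 5.66% of that sum. Paneth cell markers (all 6 above 0 in all libraries) summed to 3560 to 21409 TPM, goblet cell markers (7 of 7) to 778.4 to 4318 TPM and enterocyte markers (8 of 8) to 7757 to 16298 TPM. The CD45 gene Ptprc was at 74.2 to 170.9 TPM despite the gate, and the 9 immune cell markers summed to 126.0 to 289.1 TPM. Paneth, goblet, enterocyte and immune sums varied 6.01-fold, 5.55-fold, 2.10-fold and 2.29-fold, more than the 1.43-fold range of Sct. The tuft marker sum also varied more than Sct, 1.68-fold. The part of any of these cell types in the level of Sct was not tested.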

How the data were processed

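RNA from sorted ileal tuft cells was amplified by a modified SMART-Seq2 protocol and sequenced in 6 libraries, which form 1 group with no control group. The labels name 3′ polyA and droplet preparations as well, which the methods do not describe. Comparisons of level between genes, such as Sct with Plcb2 and Dclk1, assume the preparation in the methods. Bowtie was used for alignment against a UCSC transcriptome of mm10, and the authors deposited TPM values computed with RSEM, which are corrected for transcript length. TPM keeps no read number, so depth, counting intervals and detection limits are unknown. The submitters' processing notes also name TopHat and a differential expression tool. For the strand setting and gene filter, nothing is stated in the methods or labels. Rn45s took 23.1% to 32.6% of the TPM, which lowers all other values of a library by a common factor that differs between libraries.

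Columns were matched to the replicates by number. Values were compared as TPM or as log2(TPM + 1). The members, gene lists and alternatives were chosen with earlier results of these data known. Genes named in the text are the 10 hormone genes, up to 4 genes of each list with the highest means of at least 1 TPM, the 5 genes most like Sct, and others chosen after their values were seen. The last are Plcb2, Dclk1, Tph1, Hhex, Pam, Npy1r, Neurod1, Sctr and the genes named as absent. The titles name the libraries as mouse replicates and the study describes its samples as independent. Each p-value is the share of pairings of these libraries whose correlation was at least as strong in either direction. Only 4 correlations were tested, by exact permutation over 720 pairings. Positions are from GENCODE M21 (GRCm38) and sequences from RefSeq (GRCm38.p6), both matched by symbol for 10 of 10 genes. The spread, likeness and rescaling steps were checked on simulated data. The alternatives were 2 rescalings, pseudocounts of 0.1 and 0.01, a minimum of 0.1 TPM, other measures of spread, centring within replicates 1 to 3 and 4 to 6, and leaving out each library. Python 3.11.15, numpy 2.4.6, pandas 2.3.3 and matplotlib 3.10.9 were used.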

Additional observations from a re-analysis of the deposited data

Results flagged for a closer look

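In 9 of 59 measures screened, the highest library lay farther from its nearest neighbour than Dixon's 95% critical value for 6 libraries allows. Chance would give about 1 in 20, or 2.95 of 59, and genes of 1 cell type are not independent. That figure holds for normally distributed values, whereas several measures hold many zeros, so it is only a rough guide. Replicate 3 stood apart for Gip (ratio 0.963), at 52.6 TPM against at most 1.93 TPM elsewhere, and for Nts (0.813), at 6.15 against at most 1.15 TPM. Replicate 4 stood apart for Iapp (0.887), at 46.1 against at most 5.23 TPM, and for Scg2 (0.847), at 10.6 against at most 1.62 TPM. Sst, with 79.2 TPM in replicate 4 against at most 30.0 TPM elsewhere, fell just short with a ratio of 0.621.

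Replicate 5 stood apart for Chga (0.845), Chgb (0.769) and the summed enteroendocrine markers (0.896), whose sum was 113.7 TPM there and at most 25.0 TPM elsewhere. Chga, Chgb and Tph1 made up 111.04 TPM of that sum, and 8 of the other 9 markers were at 0 in that library, so the sum largely repeats the values of Chga and Chgb. Replicate 1 stood apart for Scg5 (0.681), at 51.8 against at most 19.7 TPM. Replicate 6 stood apart for the goblet cell gene Agr2 (0.632), at 901.4 against at most 386.5 TPM. Sct did not stand apart in any library, but it was chosen for its steadiness in these same values, so this is a description only. The causes were not tested.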

How the results depend on the processing

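All of these results lack a group comparison, and depth is unknown, so zeros cannot be told apart from shallow sequencing. Of the values for Sct, the mean moved by less than 1 SD with median-of-ratios factors and with the low-value minimum, and rose to 559.8 TPM without Rn45s and Gm20594, a rescaling that raises every value. With each library left out it was 365.8 to 394.4 TPM. The coefficient of variation was 12.4% and 14.8% under the 2 rescalings and 7.58% to 14.6% with each library left out. The share of genes of like level with a smaller coefficient was 14.8% under median-of-ratios rescaling, 22.8% without Rn45s and Gm20594, 8.07% among genes within 1.5 times the mean, 5.15% by the SD on the log2 scale and 0.924% to 18.2% with each library left out. The log2 difference of Sct from the most abundant other hormone gene was 4.34 to 4.50 under the rescalings and pseudocounts and 3.801 to 4.77 with each library left out, and the share of Sct among the hormone genes was 84.8% to 91.1%. Means of the other 9 hormone genes moved by less than 1 SD under every alternative run, although that SD is large.

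None of the 4 correlations passed 0.05 under any of the 14 settings (smallest adjusted exact permutation p = 0.5). The median of the enteroendocrine markers was tied at 0 in several libraries. Some settings that left out a library or centred within replicates therefore could not have passed for that list. The sign of none of the 4 is firm. Both relations of Sct changed sign without the pair of libraries most distant from the list median, to -0.256 with the tuft markers and 0.905 with the enteroendocrine markers, and both relations of Gcg did so in the settings below. For Gcg and the enteroendocrine markers, r was 0.018 as deposited, -0.024 with values under 0.1 TPM set to 0, and -0.306 to 0.690 with each library left out. For Gcg and the tuft markers it was -0.774 to 0.318 with each library left out. For Sct it was 0.144 and 0.230 with the tuft markers under the 2 rescalings, 0.031 to 0.698 with the same markers and each library left out, and -0.433 to -0.286 with the enteroendocrine markers and each library left out. Using the mean of each list in place of its median, chosen after the data were seen, gave 0.528 and -0.531 for Sct. No paired analysis was possible because the libraries form 1 group.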
